A study of Mus musculus with 8 samples.

Results

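The lysosomal gene set described here held 32 members, chosen by gene symbol for a known role in the lysosome and not by a measured value, with *Mitf* left out. The choice was made with earlier results of these data known. The members were 4 lysosome membrane proteins, 8 glycosidases, 5 sulfatases, 5 lipid and acyl hydrolases with their activator, 8 proteases and 2 transcription factors of the MiT/TFE family. All 32 were among the 24059 gene symbols counted, and all 32 were among the 14934 genes with enough counts to be tested.

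The samples were bone marrow–derived mast cells (BMMCs), grown with IL-3 for at least 4 wk from the marrow of C57BL/6 mice that were 6 to 8 wk old. The cells received Cas9-gRNA ribonucleoproteins (RNPs) and were kept for 1 wk at rest before poly(A) RNA was sequenced. One group (4 samples, genotype label *Zc3h12a* KO) received a mix of 3 crRNAs against *Zc3h12a*, the gene of the endoribonuclease Regnase-1, and the other (4 samples, genotype label *Zc3h12a* WT) a scrambled RNP that has no target. The comparison asks how the resting transcriptome of mast cells differs when Regnase-1 is targeted. Both groups thus shared strain, culture, electroporation and Cas9. Cells were edited as a population and not grown as clones, and the counts do not measure the share of edited cells. The cells came from 4 mice, each of which gave cells for both RNPs, and samples that carry the same replicate number were compared as pairs.

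Lysosomes take apart sugars, sulfated glycans, lipids and proteins with acid hydrolases, which are made in the endoplasmic reticulum, mostly tagged with mannose 6-phosphate and delivered through endosomes. Transcription factors of the MiT/TFE family (*Tfeb*, *Tfe3* and *Mitf*) bind an E-box, extended in the so-called CLEAR element, near the start of many lysosomal genes. In mast cells the lysosome is close kin to the secretory granule, which shares with it membrane proteins such as CD63 and LAMP1 and hydrolases such as the hexosaminidases whose release is a common assay of degranulation.

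Because MiT/TFE factors bind these letters, the RefSeq windows from 250 bases before to 50 bases after each gene's start (build GRCm38.p6) were searched for the E-box CACGTG and for the CLEAR core TCACGTGA. Both motifs are palindromes, so that 1 search covers both strands, and each TCACGTGA also holds CACGTG. A window was found for 29 of the 32 members and not for *Asah1*, *Ctsb* or *Galns*. CACGTG was in the windows of 12 of these 29 (41.4%), against 8.09% of 27025 genes with a window and 11% of the 11641 such genes that were tested here. The longer TCACGTGA was in 4 of 29 (13.8%), which were *Mcoln1*, *Gla*, *Ctsa* and *Ctsd*, against 1.12% of all genes and 2.02% of the genes tested. Among 91 related genes with a window (other lysosomal, V-ATPase, sorting, mTORC1 and autophagy genes), 21 (23.1%) held CACGTG and 9 (9.9%) TCACGTGA. The matches are a description of the sequence and do not show that a factor was bound. The sequences below carry the CLEAR core (first 5 lines) or, in 3 transcripts that were lower after *Zc3h12a* RNP in every pair, the E-box. Capitals mark the motif, and each sequence is read along the gene's own strand. The position given is that of the first base of CACGTG relative to the start, also within the CLEAR core.
Mcoln1 (chr8:3500462-3500491, plus strand, -45): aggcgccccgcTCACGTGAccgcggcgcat
Gla, first (chrX:134601215-134601244, minus strand, -227): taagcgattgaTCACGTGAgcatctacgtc
Gla, second (chrX:134601182-134601211, minus strand, -194): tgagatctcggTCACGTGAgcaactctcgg
Ctsa (chr2:164833749-164833778, plus strand, -12): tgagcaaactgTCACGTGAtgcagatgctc
Ctsd (chr7:142387908-142387937, minus strand, -98): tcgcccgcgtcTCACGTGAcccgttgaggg
Lamp1 (chr8:13159121-13159150, plus strand, -28): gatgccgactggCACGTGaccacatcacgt
Glb1 (chr9:114401018-114401047, plus strand, -48): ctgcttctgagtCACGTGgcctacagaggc
Arsa (chr15:89477423-89477452, minus strand, -16): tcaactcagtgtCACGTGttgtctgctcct
*Ctsa* held another CLEAR core, not shown, whose CACGTG began at 5. Both cores of *Ctsa* lay in window 2 of this gene, and their positions are relative to the start of that window's transcript. *Lamp1* held 4 matches of CACGTG, which began at -61, -45, -28 and -15. The remaining members with a match were *Gaa*, *Naglu*, *Sgsh*, *Ctsl* and *Lgmn*.

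The total count per sample was 19610240 to 33986762 after scrambled RNP and 23712029 to 28564062 after *Zc3h12a* RNP. The targeted transcript was at 24.9 to 39.3 CPM (counts scaled by the TMM-normalized library size) in the first group and 26.8 to 41.1 in the second, so that its level gives no check of the labels. Scrambled replicate 2 had the normalization factor farthest from 1 (0.883, against 0.964 to 1.08 in the others). Mast cell transcripts used as markers, which included *Kit*, *Fcer1a* and *Cpa3*, summed to 56550 to 69350 CPM in the 8 samples, and *Kit* alone was at 2432 to 3926 CPM. The 12 macrophage markers, whose cells are also rich in lysosomes, summed to 9.52 to 12.5 CPM, and *Csf1r*, *C1qa*, *C1qb* and *C1qc* had 0 counts in at least 1 sample and no more than 6 in any. Neutrophil markers summed to 11.9 to 172 CPM, nearly all of it *Ctsg*, while *S100a9* and *Ly6g* had at most 1 count. The lists of B cells (0.602 to 2.71 CPM), dendritic cells (6.56 to 25.5) and basophils (538 to 638) were low beside the mast cell list, and that of erythroid cells and megakaryocytes (1264 to 2030) was nearly all *Itga2b*. No marker was at 0 in all samples, and *Tpsab1* was the mast cell marker with too few counts to be tested (0 to 3).

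The lysosomal transcripts were abundant in BMMCs. Together they made up 0.530% to 0.665% of all counts, and *Ctsd*, *Cd63*, *Man2b1* and *Ctsc* gave 47.7% to 55.3% of the members' CPM. Per kilobase of the canonical transcript, the tetraspanin gene *Cd63* was the highest, at a mean of 663 CPM per kb (440.2 to 827 over the 8 samples), and *Ctsd*, the gene of the aspartyl protease cathepsin D, was next at 542 (414 to 638). The ranges of these neighbours overlap. A gap followed, after which *Ctsc* (164 CPM per kb), *Lamp2* (148), *Man2b1* (144), *Lamp1* (128), *Hexa* (105) and *Glb1* (101) came in this order, each with a range over samples that overlaps that of the next. The other hydrolases, with *Mcoln1* and *Tfe3*, filled the scale from *Psap* (69.8) down to *Galns* (3.46). The median of the members was 32.6 CPM per kb against 4.73 for 14384 tested genes with a canonical length, and 27 of 32 members were above that median.

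At the other end, *Arsb* (0.724 CPM per kb), *Ctsl* (0.625), *Lgmn* (0.596) and *Tfeb* (0.568) were at the 20.9th to 24.2nd percentile of genes tested, and their ranges overlap. *Ctsl* and *Lgmn* encode cathepsin L and legumain, endoproteases of the endosome and lysosome. *Tfe3*, the other MiT/TFE gene among the members, was at 11.6 CPM per kb (9.43 to 12.6), and all 8 of its values were above the highest of *Tfeb*.

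**Figure D1:**
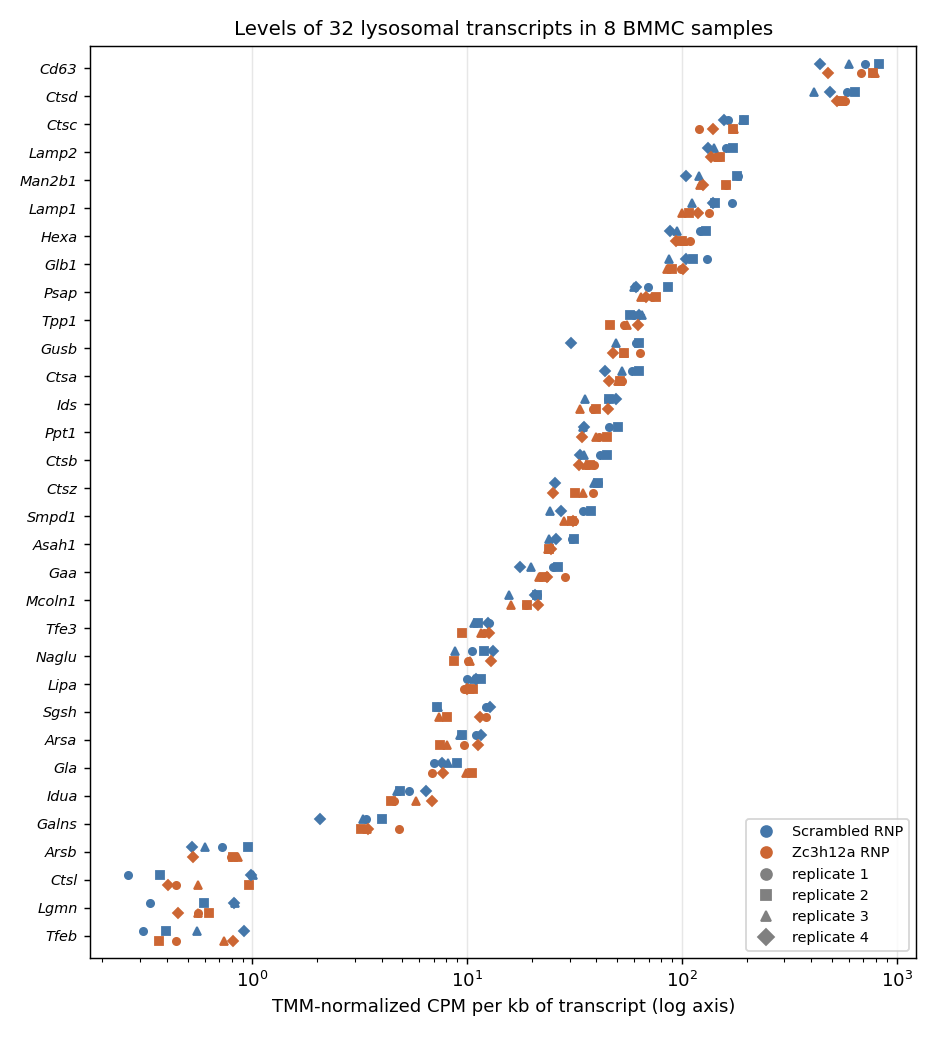
Level of each of the 32 transcripts in each of the 8 samples, in TMM-normalized CPM per kb of canonical transcript on a log axis, with scrambled RNP in blue, *Zc3h12a* RNP in orange and a symbol for each replicate number. The levels run from 663 CPM per kb for *Cd63* to 0.568 for *Tfeb* (means), and the colours overlap for every transcript.

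After *Zc3h12a* RNP, 0 of the 32 members were higher and 0 were lower by more than 0.5 on the log2 scale with an adjusted p of 0.05 or less (edgeR's quasi-likelihood test, blocked on replicate number, Benjamini-Hochberg adjustment over all genes tested). The share of all genes past these thresholds was 0% higher and 0% lower. With an unadjusted p of 0.05 or less, 3 members (9.38%) were lower, namely *Lamp1*, *Ctsc* and *Arsa*, and 0 were higher, where 4.05% of all genes tested were lower and 2.12% higher. Such a count of lower members was 2 with DESeq2, 4 with limma-trend, 1 with DESeq2's size factors in edgeR and 0 with no replicate block. The share over all genes was not counted under these settings, so that these counts are not set apart from the other genes. All 32 log2 fold changes were smaller than 0.3 in size. The 95% interval of 27 members stayed within 0.5 of 0 in both directions, and that of the remaining 5 (*Galns*, *Arsb*, *Ctsl*, *Lgmn* and *Tfeb*) reached beyond it.

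The log2 fold change was below 0 in 21 of 32 members (65.6%) and in 42.2% of genes tested, and its median was -0.06 over the members against 0.04 over all genes tested. This split depended on the scaling. With library totals alone, 14 were below 0 and 18 above. The median was then 0.01 over the members and 0.11 over all genes, so that the members' median was the lower one with either scaling. The share of all genes below 0 was not counted with library totals. Of the 32 members, 9 (28.1%) were lower after *Zc3h12a* RNP in 4 of 4 pairs, against 8.54% of genes tested, and these were *Lamp1*, *Ctsc*, *Arsa*, *Asah1*, *Glb1*, *Tpp1*, *Ids*, *Ctsz* and *Lipa*. None of the members was higher in all 4 pairs, against 4.98% of genes tested. In each of the 9 the values of the groups overlapped. No member had groups that did not overlap, where 0.663% of genes tested were lower and 0.261% higher without overlap. For a transcript lower in all 4 pairs, the exact two-sided sign-flip test gave p = 0.125, the smallest that 4 pairs allow (2 of 16 sign assignments). Mast cell markers were shifted the same way. Of the 11 tested, 10 had a log2 fold change below 0, and the sum of the list was 59928 to 69350 CPM after scrambled RNP and 56550 to 60344 after *Zc3h12a* RNP. The part of this in the lysosomal differences was not tested. In such bulk samples, fewer cells of a type and less RNA per cell cannot be told apart.

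**Figure D2:**
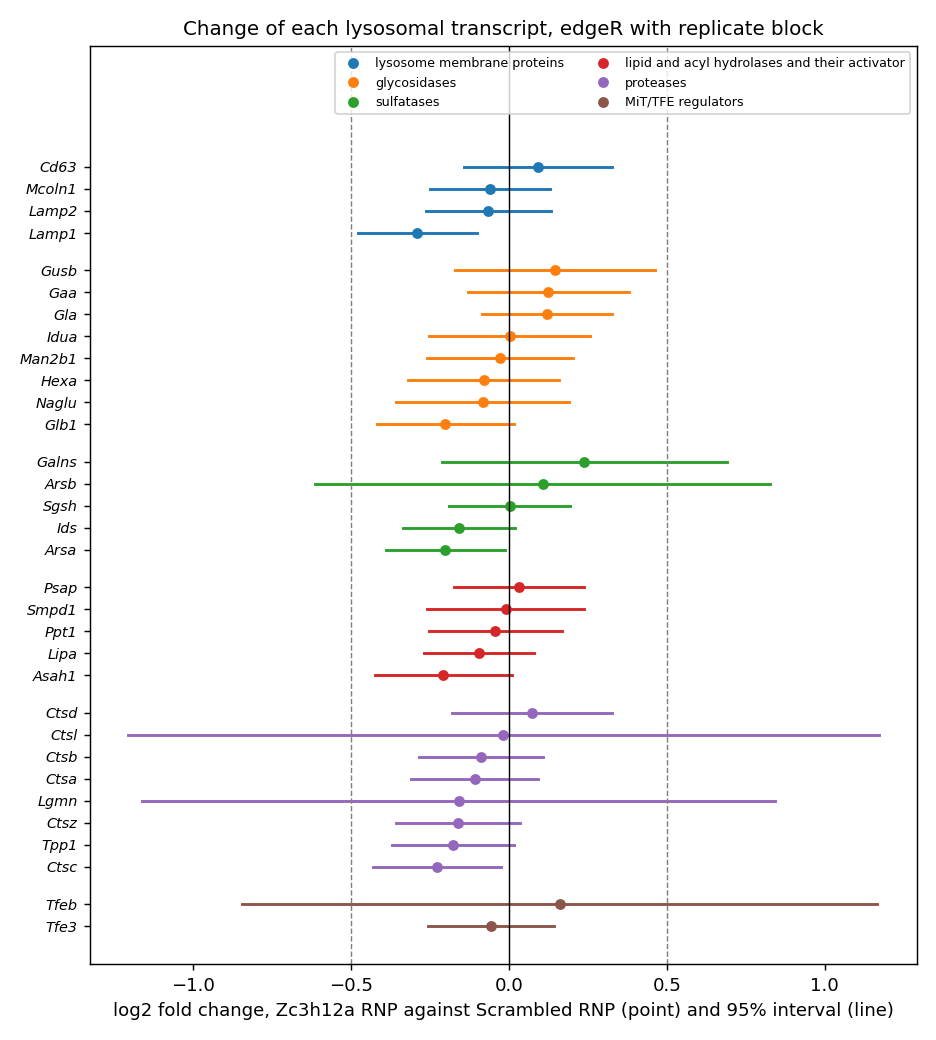
Log2 fold change of each transcript after *Zc3h12a* RNP against scrambled RNP (point) with its 95% interval (line), by role, from edgeR with the replicate number as block and 4 samples per group. The points lie between -0.29 for *Lamp1* and 0.24 for *Galns*, and the intervals of 3 transcripts, *Lamp1*, *Ctsc* and *Arsa*, do not reach 0 (dashed lines at 0.5 in each direction).

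Among the membrane proteins, *Lamp1* had the largest difference of all members. LAMP1 is a heavily glycosylated protein that lines the inside of the lysosomal membrane. *Lamp1* (chromosome 8, 13209121 to 13227360, GRCm39) was at 439, 365, 287 and 360.2 CPM in scrambled RNP replicates 1 to 4 and at 342, 278, 257 and 304 CPM in *Zc3h12a* RNP replicates 1 to 4. Every *Zc3h12a* RNP sample was below its scrambled partner, but replicates 1 and 4 after *Zc3h12a* RNP were above scrambled replicate 3. The differences within pairs were -0.36, -0.39, -0.16 and -0.24 on the log2 scale. The log2 fold change was -0.29 (SE 0.080, 95% interval -0.48 to -0.10), and in edgeR's quasi-likelihood test the unadjusted p was 0.00777 (adjusted p = 0.58). Of the exons of its canonical transcript 41.7% overlap *Grtp1* or *Gm64292* on the other strand, and since the strand setting of the counting is not given in the sources used here, reads of these genes may be counted together or dropped.

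*Lamp2*, which encodes the second major glycoprotein of that membrane and serves chaperone-mediated autophagy, was at 284, 307, 250.2 and 235 CPM after scrambled RNP and 254, 267, 261 and 242 CPM after *Zc3h12a* RNP. It was lower in pairs 1 and 2 and higher in pairs 3 and 4, for a log2 fold change of -0.06 (95% interval -0.26 to 0.13). *Cd63*, which marks late endosomes, lysosomes and mast cell granules, was at 982, 1143, 827 and 608 CPM and at 942, 1076, 1091 and 662 CPM. Its difference was 0.40 in pair 3 and between -0.09 and 0.12 in the others, with a log2 fold change of 0.09 (SE 0.10). *Mcoln1*, the gene of the lysosomal calcium channel TRPML1, which holds a CLEAR core in its window, was at 44.0, 43.8, 32.4 and 42.7 CPM and at 39.2, 39.4, 33.2 and 44.4 CPM. The groups cover almost the same range, and the log2 fold change was -0.06 (SE 0.081).

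The glycosidases, which remove sugars from glycolipids, glycoproteins and glycosaminoglycans, had a median log2 fold change of -0.01, with 4 of 8 above 0 and 4 below. *Glb1*, the β-galactosidase gene, was at 313, 269, 209 and 251 CPM after scrambled RNP and 238, 216, 203 and 242 CPM after *Zc3h12a* RNP. It was lower in all 4 pairs, by more in pairs 1 and 2 (-0.39 and -0.32) than in pairs 3 and 4 (-0.04 and -0.05). Its log2 fold change was -0.20 (SE 0.093, adjusted p = 0.844 in edgeR's quasi-likelihood test). *Hexa*, which encodes the α subunit of β-hexosaminidase, had its largest difference in pair 2 (-0.37), at 244, 259, 189 and 175 CPM and at 219, 200.1, 204 and 187 CPM. In *Hexa* the differences in pairs 3 and 4 were above 0 (0.11 and 0.10), and the log2 fold change was -0.08 (SE 0.10).

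*Gusb*, the gene of β-glucuronidase, went the other way in most pairs. It was at 166, 170.1, 134 and 82.3 CPM after scrambled RNP and 172, 146, 144 and 129 CPM after *Zc3h12a* RNP. Scrambled replicate 4 was lower than all the other samples, and pair 4 had a difference of 0.65, beside 0.06, -0.22 and 0.11 in pairs 1 to 3. Its log2 fold change was 0.15 (SE 0.14), and -0.02 without replicate 4. *Gaa*, which encodes the acid α-glucosidase that breaks down glycogen, was higher in 3 of 4 pairs, with means of 81.0 ± 15.4 CPM after scrambled RNP and 87.7 ± 11.1 after *Zc3h12a* RNP (SD, n = 4) and a log2 fold change of 0.13. *Gla*, the α-galactosidase A gene with 2 CLEAR cores, was at 22.4, 28.7, 26.3 and 24.4 CPM and at 21.9, 33.8, 31.6 and 24.7 CPM, a log2 fold change of 0.12 (SE 0.088). Pairs 2 and 3 made up nearly all of that difference.

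The lysosomal α-mannosidase gene *Man2b1* had a larger spread between replicates than between RNPs. It was at 791, 784, 521 and 454 CPM after scrambled RNP and 692, 693, 523 and 545 CPM after *Zc3h12a* RNP. Replicates 1 and 2 were high and replicates 3 and 4 low in both groups, and the log2 fold change was -0.03 (SE 0.099). *Idua* and *Naglu*, whose enzymes both take part in the breakdown of heparan sulfate, had log2 fold changes of 0.003 and -0.08. Both had group means that differed by less than 1 SD (18 ± 2.68 and 18.2 ± 3.86 CPM for *Idua*, 28.4 ± 4.96 and 26.8 ± 4.63 for *Naglu*).

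Of the sulfatases, which take sulfate from glycans and sulfolipids, *Arsa* and *Ids* were lower in all pairs and *Galns*, *Arsb* and *Sgsh* had log2 fold changes above 0. *Arsa*, the arylsulfatase A gene, was at 48.2, 41.6, 40.8 and 51.1 CPM after scrambled RNP and 42.1, 32.7, 35.3 and 49.2 CPM after *Zc3h12a* RNP. Replicates 1 and 4 were the higher ones in both groups. Its log2 fold change was -0.20 (SE 0.081), and its p in edgeR's quasi-likelihood test was 0.0409 before and 0.772 after adjustment. Of its exons 27.0% overlap *C230037L18Rik* on the other strand. *Ids*, the gene of iduronate 2-sulfatase, was at 226, 230, 176 and 247 CPM and at 192, 199.8, 169 and 226 CPM. Replicate 3 was the lowest in each group, and the log2 fold change was -0.16 (SE 0.076, adjusted p = 0.869).

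*Galns*, which encodes the sulfatase for keratan and chondroitin sulfate, had the highest log2 fold change of the members, 0.24, but with an SE of 0.19 and 115 to 366 counts per sample. It was at 8.94, 10.6, 8.66 and 5.47 CPM after scrambled RNP and 12.7, 8.45, 9.01 and 9.09 CPM after *Zc3h12a* RNP. The low scrambled replicate 4 and the high *Zc3h12a* RNP replicate 1 gave differences of 0.72 and 0.50, while pair 2 was at -0.32. The log2 fold change was 0.084 without replicate 4 and 0.49 without replicate 2. *Sgsh*, the gene of the heparan N-sulfatase, was at 53.3, 31.6, 31.9 and 56.1 CPM and at 53.4, 35.2, 32.4 and 50.1 CPM. Replicates 1 and 4 were well above replicates 2 and 3 in both groups, and the log2 fold change was 0.003 (SE 0.083). *Arsb* was at 46 to 119 counts, with a log2 fold change of 0.11 (SE 0.31).

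In the group of lipid and acyl hydrolases, 4 of 5 log2 fold changes were below 0, with a median of -0.04. *Asah1*, the gene of acid ceramidase, was at 98.1, 100.3, 77.1 and 83.0 CPM after scrambled RNP and 77.0, 76.7, 76.5 and 78.8 CPM after *Zc3h12a* RNP. The samples after *Zc3h12a* RNP were nearly equal. Scrambled replicates 1 and 2, and by less replicate 4, stood above all of them, and scrambled replicate 3 lay within their range. Its log2 fold change was -0.21 (SE 0.093, adjusted p = 0.837 in edgeR's quasi-likelihood test). *Lipa*, which encodes the acid lipase that frees cholesterol from its esters, was lower in all 4 pairs by 0.04 to 0.14 on the log2 scale. It was at 29.6, 34.5, 32.2 and 32.9 CPM and at 28.8, 31.6, 30.8 and 29.8 CPM, a log2 fold change of -0.09 (SE 0.074).

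*Smpd1*, the gene of acid sphingomyelinase, was at 75.0 ± 15.3 CPM after scrambled RNP and 73.5 ± 3.47 after *Zc3h12a* RNP (SD, n = 4), lower in pairs 1 and 2 and higher in pairs 3 and 4. *Ppt1*, the palmitoyl-protein thioesterase gene, had a log2 fold change of -0.04 (SE 0.090), at 104 ± 19.9 and 100.3 ± 10.8 CPM. *Psap*, whose product is cut into the saposins that activate sphingolipid hydrolases, was at 185, 229, 159 and 162 CPM and at 193, 199.8, 172 and 181 CPM. It was higher in 3 of 4 pairs and lower in pair 2, for a log2 fold change of 0.03 (SE 0.088).

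The proteases had the lowest median of the larger groups, -0.13, with 7 of 8 log2 fold changes below 0. *Ctsc* encodes cathepsin C, the dipeptidyl peptidase that activates the granule serine proteases of mast cells. It was at 442, 523, 517 and 422 CPM after scrambled RNP and 323, 465, 473 and 378 CPM after *Zc3h12a* RNP. The difference was -0.45 in pair 1 and -0.13 to -0.17 in the others. Its log2 fold change was -0.23 (SE 0.087, 95% interval -0.43 to -0.02), and in edgeR's quasi-likelihood test the unadjusted p was 0.0327 (adjusted p = 0.744). No annotated gene overlaps its exons.

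*Tpp1*, which encodes the tripeptidyl peptidase that trims peptides from their N terminus, was at 213, 205, 231 and 224 CPM after scrambled RNP and 191, 165, 197 and 223 CPM after *Zc3h12a* RNP. Pair 4 was alike to within 0.005 on the log2 scale, and the log2 fold change was -0.18 (SE 0.083, adjusted p = 0.858). *Ctsz*, the gene of the carboxypeptidase cathepsin Z, was at 139, 139, 133 and 88.1 CPM and at 132, 109, 118 and 85.8 CPM. Replicate 4 was the low one in both groups, and the log2 fold change was -0.16 (SE 0.084). *Nelfcd*, on the other strand, overlaps with *Ctsz* over 31.7% of its exons.

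*Ctsd* was the member with the most counts, 21861 to 40736 per sample. It was at 1244, 1357, 881 and 1040 CPM after scrambled RNP and 1220, 1180, 1172 and 1124 CPM after *Zc3h12a* RNP. The latter were close together and inside the range of the former, and the log2 fold change was 0.07 (SE 0.11). Over 38% of its exons it overlaps *Gm49369* on the same strand. *Ctsb*, for the cysteine protease cathepsin B, and *Ctsa*, for the carboxypeptidase that also shields β-galactosidase and neuraminidase, had log2 fold changes of -0.09 (SE 0.084) and -0.11 (SE 0.086). Each was lower in 3 of 4 pairs, and 42.9% of the exons of *Ctsa* overlap *Neurl2* or *Pltp* on the other strand.

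*Ctsl* differed between pairs more than any other member. It was at 1.55, 2.2, 5.95 and 5.85 CPM after scrambled RNP and 2.60, 5.68, 3.29 and 2.40 CPM after *Zc3h12a* RNP, from 49 to 151 counts. Its differences in pairs 1 to 4 were 0.72, 1.34, -0.84 and -1.26, so that the log2 fold change of -0.02 had an SE of 0.51. *Lgmn*, at 34 to 68 counts, was also higher in pairs 1 and 2 and lower in pairs 3 and 4, for a log2 fold change of -0.16 (SE 0.43).

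**Figure D3:**
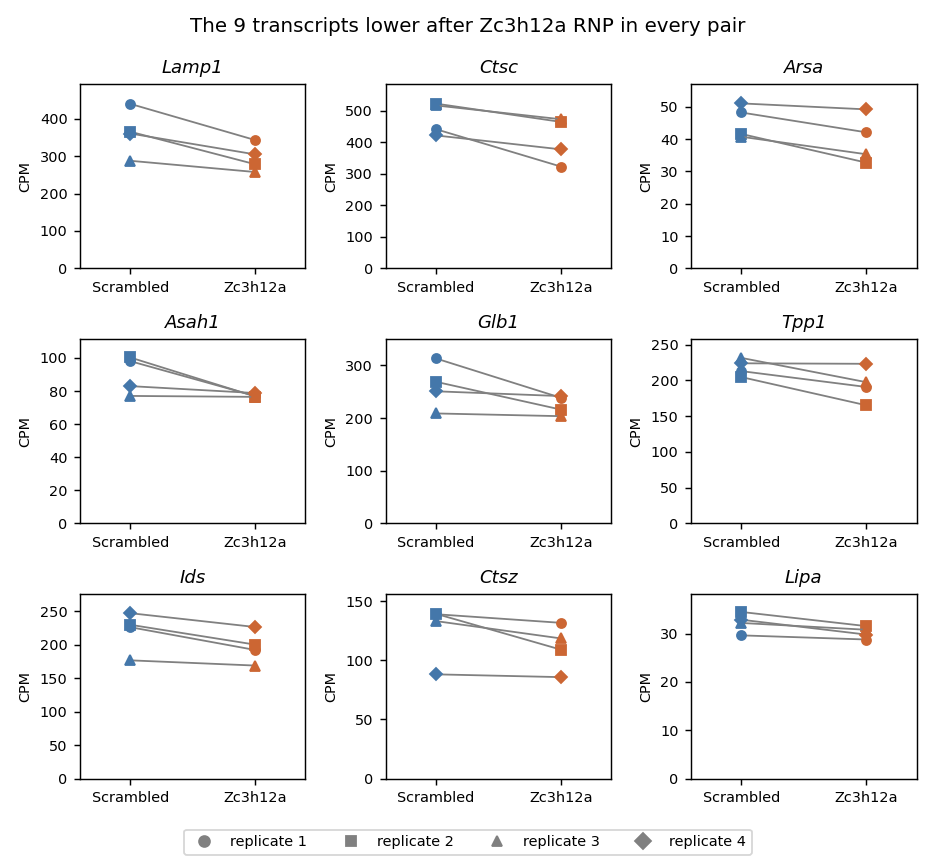
CPM of the 9 transcripts that were lower in every pair, with scrambled RNP at the left and *Zc3h12a* RNP at the right of each panel, lines joining samples of the same replicate number and axes that start at 0. Every line slopes downwards, with log2 fold changes from -0.29 for *Lamp1* to -0.09 for *Lipa*, and the groups overlap in each panel.

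For the transcripts of the regulators no difference beyond their error was detected. *Tfe3* was at 43.0, 38.2, 36.9 and 42.9 CPM after scrambled RNP and 40.8, 32.2, 39.6 and 43.0 CPM after *Zc3h12a* RNP, with a log2 fold change of -0.06 (95% interval -0.25 to 0.14). *Tfeb* had only 20 to 59 counts per sample. It was at 0.729, 0.933, 1.30 and 2.14 CPM and at 1.04, 0.867, 1.73 and 1.92 CPM, and its log2 fold change of 0.16 had a 95% interval of -0.84 to 1.17, which reaches beyond 0.5 in both directions. Members with a CACGTG match had a median log2 fold change of -0.07 (8 of 12 below 0) and those with a window but no match -0.04 (11 of 17 below 0). Of the 9 transcripts lower in all pairs, *Lamp1*, *Glb1* and *Arsa* held a match, and *Asah1* had no window to search.

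The differences were unlike between replicate numbers. The median difference of the 32 members was -0.08, -0.21, 0.05 and -0.001 (log2 scale) in pairs 1 to 4, with 9, 4, 20 and 16 members above 0. Over all genes tested, the median was 0.03, 0.01, 0.01 and -0.06, with 8072, 7651, 7608 and 6615 of 14934 genes above 0. Scrambled replicates 1 and 2 were both above replicates 3 and 4 in 19 of 32 members, and scrambled replicate 2 was the highest of its group in 18. Neither count was made over all genes tested, so that they are not set apart from the other genes. Summed over the members, the scrambled RNP samples were at 6772, 7128, 5431 and 5296 CPM and the *Zc3h12a* RNP samples at 6139, 6172, 5936 and 5496 CPM. The sum was thus lower after *Zc3h12a* RNP in pairs 1 and 2 and higher in pairs 3 and 4. The coefficient of variation was larger in scrambled RNP samples for 26 of 32 members and for 70.5% of genes tested, with medians over the members of 17.6% and 12.4%. Without replicate 2, the log2 fold change was below 0 in 11 members and above 0 in 21, and without replicate 1 in 16 and 16. Without replicate 3 these were 26 and 6. The SD of the pair means between replicate numbers was larger than the size of the mean difference within pairs in 26 of 32 members. This count was not made over all genes tested. The median of that SD over genes tested was 0.34 on the log2 scale, and all members but *Cd63*, *Sgsh*, *Ctsl* and *Tfeb* were below it. The members also had a higher median level (32.6 CPM per kb against 4.73 over genes tested). The part of level in their smaller SD was not tested.

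**Figure D4:**
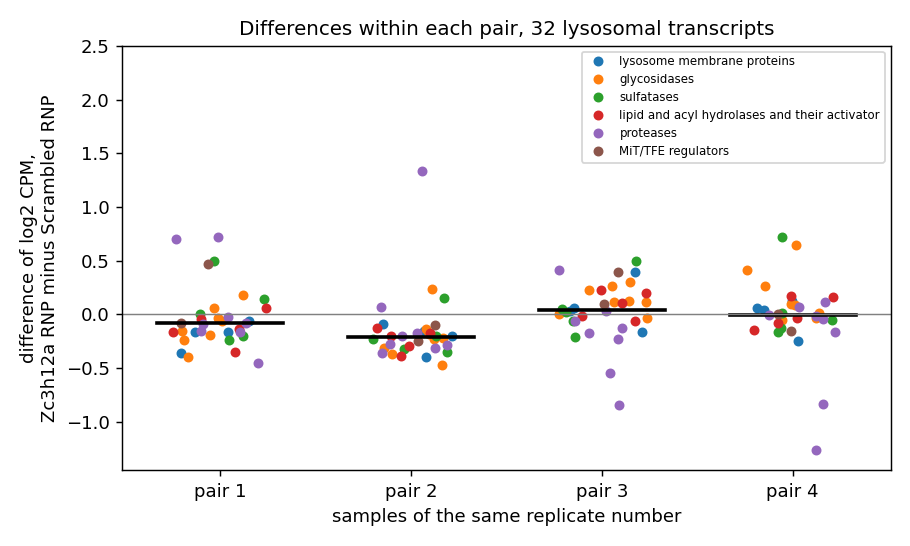
Difference of log2 CPM within each pair (*Zc3h12a* RNP minus scrambled RNP) for the 32 transcripts, coloured by role, with a black bar at each pair's median. The medians are -0.083, -0.21, 0.046 and -0.001 in pairs 1 to 4, and the widest points belong to *Ctsl* (1.34 in pair 2 and -1.26 in pair 4).

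**Figure D5:**
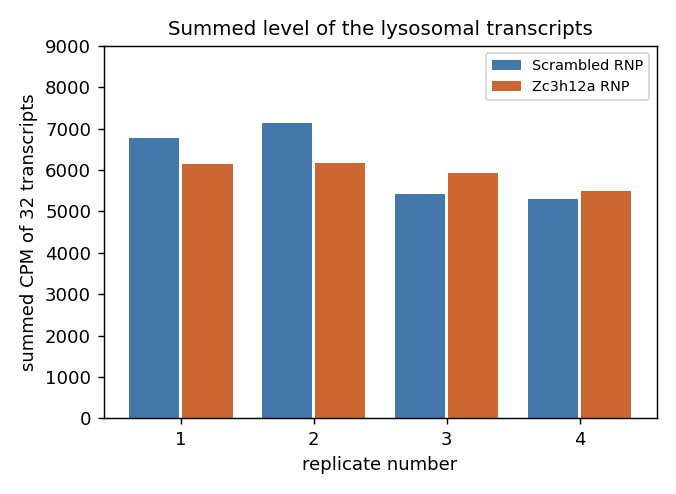
Summed CPM of the 32 transcripts in each sample by replicate number, with scrambled RNP in blue and *Zc3h12a* RNP in orange on an axis from 0. The scrambled sample is the higher one in pairs 1 and 2 (6772 and 7128 CPM) and the lower one in pairs 3 and 4 (5431 and 5296 CPM).

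Other genes of the lysosome and its control were read from lists of related genes. None of these genes passed the thresholds in any list. Of 26 tested genes for other hydrolases and their cofactors, the median log2 fold change was -0.02, and 1 was higher and 4 lower with an unadjusted p of 0.05 or less. For these lists too, the share over all genes tested was 2.12% higher and 4.05% lower. This list holds *Gba2*, whose enzyme works outside the lysosome. *Gm2a*, which encodes the activator protein that presents GM2 ganglioside to hexosaminidase A, was at 2437, 2309, 1701 and 1957 CPM after scrambled RNP and 1727, 1696, 1556 and 1584 CPM after *Zc3h12a* RNP. It had more counts than any of the 32 members, was lower in 4 of 4 pairs, and had a log2 fold change of -0.34 (SE 0.086, adjusted p = 0.50 in edgeR's quasi-likelihood test). *Neu1*, the lysosomal neuraminidase gene, was also lower in 4 of 4 pairs, at 51.6 ± 6.53 and 41.8 ± 8.26 CPM (SD, n = 4). Its log2 fold change was -0.31 (SE 0.079). The remaining ones, named after their values were seen, were *Ctsf* (log2 fold change -0.45), *Npc2* (-0.27) and, with a higher level, *Ifi30* (0.62, higher in 4 of 4 pairs). *Ifi30* encodes a thiol reductase of the antigen-processing compartment.

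Of 17 tested genes for other membrane proteins (median -0.01), 0 were higher and 1 lower at that p, which was *Tmem192* (log2 fold change -0.26, SE 0.094), the gene of a lysosomal membrane protein. *Npc1*, which exports cholesterol from the lysosome, had the second lowest p in the list and a log2 fold change of 0.11. The 17 subunits of the V-ATPase, the pump that acidifies the lysosome, had a median of 0.01, with 0 higher and 2 lower, *Atp6v1d* (-0.29) and *Atp6v1g1* (-0.26). They were split by replicate number as the members were, with 2, 1, 13 and 12 of 17 above 0 in pairs 1 to 4. Over all genes tested, 8072, 7651, 7608 and 6615 of 14934 were above 0 in these pairs. Of 13 genes for mannose 6-phosphate tagging and sorting (median -0.02), 0 had such a p, and the lowest belonged to *Gga2* (-0.15) and *Nagpa* (-0.13).

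The 21 genes for MiT/TFE partners and for control of mTORC1 at the lysosome had a median of -0.005. None was higher and 1 was lower with an unadjusted p of 0.05 or less, *Lamtor2* (log2 fold change -0.24), and *Lamtor1*, a fellow subunit of the Ragulator complex that anchors mTORC1, was at -0.19. *Mitf*, the MiT/TFE factor that drives mast cell development, is in this list and was named after its values were seen. It was at 134, 74.6, 113 and 146 CPM after scrambled RNP and 116, 80.2, 118 and 145 CPM after *Zc3h12a* RNP, with a log2 fold change of -0.01 (SE 0.083). Replicate 2 was the low one in both groups. Of 19 autophagy genes (median -0.03), 0 were higher and 2 lower, *Map1lc3a* and *Wipi1*. *Map1lc3a*, an LC3 gene, was at 19.2, 19.9, 13.8 and 20.6 CPM and at 12.2, 16.7, 11.8 and 12 CPM, a log2 fold change of -0.48 (SE 0.12, adjusted p = 0.48 in edgeR's quasi-likelihood test). *Wipi1*, a phosphoinositide-binding autophagy gene, had a log2 fold change of -0.27 (SE 0.084). Both were lower in 4 of 4 pairs, with overlapping groups.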

How the data were processed

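RNA of 8 BMMC samples was analysed. The authors enriched poly(A) mRNA, sequenced paired 50-bp reads, aligned them to GRCm39 with HISAT2 2.2.1 and counted them per gene with featureCounts 2.0.1, and the deposited values are raw whole-number counts, 1 file per sample. FastQC 0.11.9 was used for read quality. The methods name a batch correction, which the deposited counts do not carry. The strand setting and the handling of reads with several matches are not given in the sources used here.

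Genes were filtered with filterByExpr, normalized by TMM and tested with edgeR 4.0.16 (R 4.3.3) in a model of replicate number and RNP. Thresholds were a log2 fold change of 0.5 in size and a Benjamini-Hochberg adjusted p of 0.05. The SE is the size of the log2 fold change over the square root of F. Log2 CPM used a prior count of 2. Levels between genes are CPM per kb of the Ensembl canonical transcript (GENCODE annotation, GRCm39), and positions come from the same annotation. Alternatives were DESeq2 1.42.0, limma-trend (limma 3.58.1), no block, other normalizations, other filters, removal of the replicate effect beforehand, and leaving out each replicate number. Figures were drawn with matplotlib 3.10.9.

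The members and lists were chosen with earlier results of these data known. Named genes were all 32 members and, in each list of related genes, those past the thresholds or else the 2 with the lowest p, and others are said to be named after their values were seen.

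The pairing comes from the study's design, where cells of 4 mice got both RNPs, although the labels do not say that a number marks a mouse. Each sample's departure from its group mean was therefore correlated between partners, giving r = 0.595, 0.0752, 0.624 and 0.0414 for numbers 1 to 4 across the genes tested, where samples of other numbers reached 0.398. Across the 9668 genes with a mean log2 CPM above 2, r was 0.756, 0.717, 0.728 and 0.719, against at most 0.137. No library was a duplicate of another in its group (the smallest chi-square over its degrees of freedom was 53.6).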

Additional observations from a re-analysis of the deposited data

Results flagged for a closer look

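Among 66 groups of 4 samples (each member, and their sum, in each RNP), 3 held a sample that stood apart from the other 3, by a gap to its nearest neighbour, as a share of the group's whole range, above Dixon's 95% critical value, where chance gives 3.3 such groups. *Mcoln1* was at 32.4 CPM in scrambled RNP replicate 3 and 42.7 to 44.0 CPM in the others (gap 0.893 of the range). *Ctsz* was at 88.1 CPM in scrambled RNP replicate 4 and 133 to 139 CPM in the others (gap 0.88). *Galns* was at 12.7 CPM in *Zc3h12a* RNP replicate 1 and 8.45 to 9.09 CPM in the others (gap 0.849).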

How the results depend on the processing

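In all 12 alternatives, 0 members passed both thresholds. With an unadjusted p of 0.05 or less, the 3 lower members became 0 with no replicate block, 1 with RLE normalization, 1 with library totals only, 0 with no low-count filter, 5 with at least 10 counts in every sample and 9 with the replicate effect removed first, and without a replicate they were 0 to 3 (0 without replicate 1 and without replicate 2). Higher members were 0 to 1 without a replicate (1 without replicate 2). The share over all genes at an unadjusted p of 0.05 or less was not counted in these alternatives. Removing the replicate effect before limma-trend gave *Lamp1* and *Ids* an adjusted p of 0.05 or less (lowest 0.0138) with a log2 fold change under 0.5 in size. That test does not count the degrees of freedom of the removed effect. With it, 581 of the 14934 genes tested had an adjusted p of 0.05 or less at any fold change, against 0 in the main model. The lowest adjusted p of a member lay between 0.22 (DESeq2) and 1 in the other alternatives. The members' median ran from -0.15 (without replicate 3) to 0.05 (without replicate 2), and was 0.01 with library totals only.

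Over all genes, the count past the thresholds (0 higher, 0 lower) was 8 higher and 50 lower with DESeq2, 0 and 1 with limma-trend and with RLE normalization, 9 and 31 with no low-count filter, 0 and 3 with at least 10 counts in every sample, and 34 and 79 with the replicate effect removed first. Without a replicate it was 0 to 80 higher and 0 to 57 lower, with 80 and 57 without replicate 2. The cause of these shifts was not tested. With no replicate block 0 genes were past the thresholds.

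That the 9 transcripts lower in all pairs stay below 0 when a pair is left out follows from how they were chosen. Without replicate 2, *Ctsz* was at -0.0345, *Asah1* at -0.084 and *Lipa* at -0.0215, and without replicate 1, *Ctsc* was at -0.109 and *Glb1* at -0.0909. Other members changed sign. *Idua* was at -0.016 with DESeq2 and with RLE normalization and -0.012 with at least 10 counts, and *Sgsh* at -0.017, -0.017 and -0.013, and at -0.014 with no replicate block. With library totals only, *Ctsl* was at 0.051, *Lamp2* at 0.0035, *Man2b1* at 0.042, *Mcoln1* at 0.0092, *Ppt1* at 0.025, *Smpd1* at 0.058 and *Tfe3* at 0.013. With no low-count filter, *Ctsl* was at 0.015, *Man2b1* at 0.0066 and *Smpd1* at 0.024. Over the 4 omissions of a replicate number, the log2 fold change ran from -0.16 to 0.043 for *Lamp2*, -0.062 to 0.21 for *Cd63*, -0.14 to 0.036 for *Mcoln1*, -0.20 to 0.0799 for *Hexa*, -0.018 to 0.33 for *Gusb*, -0.15 to 0.13 for *Idua*, -0.12 to 0.086 for *Man2b1*, -0.24 to 0.11 for *Naglu*, -0.078 to 0.28 for *Arsb*, -0.055 to 0.059 for *Sgsh*, -0.14 to 0.15 for *Smpd1*, -0.18 to 0.063 for *Ppt1*, -0.045 to 0.17 for *Psap*, -0.18 to 0.011 for *Ctsa*, -0.18 to 0.038 for *Ctsb*, -0.092 to 0.23 for *Ctsd*, -0.43 to 0.42 for *Ctsl*, -0.41 to 0.0797 for *Lgmn* and -0.16 to 0.0696 for *Tfe3*. DESeq2 gave no adjusted p for 4 members. *Arsb*, *Ctsl*, *Lgmn* and *Tfeb* had 20 to 151 counts per sample, and the part of depth in their wide intervals was not tested.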
